A study of Rangifer tarandus with 4 samples.

Results

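Matrix metalloproteinases (MMPs), the ADAMTS proteases and the tissue inhibitors of metalloproteinases (TIMPs) were followed here through the gene annotation deposited with a single-cell study of reindeer blood. Members were chosen by gene symbol: protein-coding genes whose symbol is MMP and a number, ADAMTS and a number, or TIMP and a number. The rule found 42 genes of 21861 protein-coding genes, made up of 20 MMP, 19 ADAMTS and 3 TIMP genes. They lay on 20 chromosomes, 33 on the plus strand and 9 on the minus strand.

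In the study, mononuclear blood cells of reindeer (Rangifer tarandus) were profiled 3 days after a wound, with blood taken at 2 places. The back group was blood of the saphenous vein (2 libraries) and the antler group was blood of the distal antler velvet (2 libraries), with 12000 cells loaded for each of the 4 libraries. Cell-by-gene counts were not analysed here, so expression, depth, spread between samples and the contrast of both sites are left out. The annotation describes cattle (Bos taurus) gene models on the assembly ARS-UCD1.2, and all coordinates below are cattle positions that count from 1 at the start of a chromosome.

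MMPs are zinc enzymes that cut collagens, elastin, laminins and many other proteins outside the cell. They are made as inactive precursors whose propeptide blocks the active site until it is removed, and most carry a hemopexin domain after the catalytic domain. ADAMTS enzymes are secreted relatives with thrombospondin repeats that bind them to the matrix, where they trim proteoglycans, procollagens, von Willebrand factor and microfibril proteins. TIMPs plug the active site of these enzymes, and the balance of enzyme and inhibitor is studied in wound repair, in leukocyte movement through tissue and in the growth of skin, cartilage and bone.

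The libraries were made from the 3′ end of transcripts, so the 3′ untranslated region (UTR), the stretch between the stop codon and the end of the transcript, is where reads of such a library mostly fall. For each gene the longest 3′ UTR over its transcripts was taken. Coding length is the number of coding bases with the stop codon, and the gene span runs from the outermost base of a gene to the other end, introns included. Gene models are not replicates, and the members were not drawn at random, so their counts and medians are descriptions set beside the same values of all protein-coding genes, with no test. Because members were chosen by symbol, the 16808 protein-coding genes with a symbol are given as a second background.

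Of the 25 MMP symbols looked up by role, 20 were matched. The collagenases MMP1, MMP8 and MMP13, which cut fibrillar collagen, were all listed, as were the gelatinases MMP2 and MMP9. Among the stromelysins, MMP3 and MMP11 were matched. The symbol MMP10 was not, and neither was MMP26 of the matrilysins beside MMP7. The symbols MMP21, MMP23A and MMP23B were not matched, and a gene with the plain symbol MMP23 was. All 19 ADAMTS symbols were matched. Of the inhibitors, TIMP2, TIMP3 and TIMP4 were matched and TIMP1 was not. Symbols that were not matched are not analysed here, and a gene listed under another symbol or with none would count as not matched.

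The 3 families had gene models of different build. Coding length ran from 831 bases (MMP7) to 2163 bases (MMP14) in the MMP genes, with a median of 1516.5 bases. In the ADAMTS genes it ran from 2625 bases (ADAMTS4) to 5814 bases (ADAMTS9), with a median of 3618 bases, so the ranges of both enzyme families did not overlap. The TIMP genes were short, with 675 bases in TIMP4, 708 bases in TIMP2 and 957 bases in TIMP3. The median of all protein-coding genes was 1146 bases, above each of the 3 TIMP genes and below 19 of 20 MMP and 19 of 19 ADAMTS genes. MMP7, which lacks the hemopexin domain, was the only MMP below that median. Genes with a symbol had a median of 1347 bases, and 18 of 20 MMP genes lay above it.

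Gene span separated the families less. Its median was 10.6 kb in the MMP genes, 144 kb in the ADAMTS genes and 54.3 kb in the TIMP genes, against 14.0 kb in all protein-coding genes and 21.0 kb in those with a symbol. A span over 100 kb was found in 11 of 42 members, or 26.2%, where all protein-coding genes had 11.6% and those with a symbol 14.3%. These were 10 of 19 ADAMTS genes and 1 MMP gene, MMP16, a membrane-bound enzyme that can activate proMMP2. MMP16 spanned 395 kb for 1824 coding bases, and its longest intron alone took 196 kb. By contrast MMP14, another membrane-type enzyme, held 2163 coding bases in 10.6 kb. The smallest member was MMP23 with 2.69 kb, where exons filled 62.6% of the span. The ADAMTS genes held both ends of a wide range, from 8.45 kb in the aggrecanase gene ADAMTS4 and 8.93 kb in ADAMTS1 to 393 kb in ADAMTS12 and 408 kb in ADAMTS17. In ADAMTS17 exons made up 0.984% of the span, and in ADAMTS1 they made up 50.3%.

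**Figure D1:**
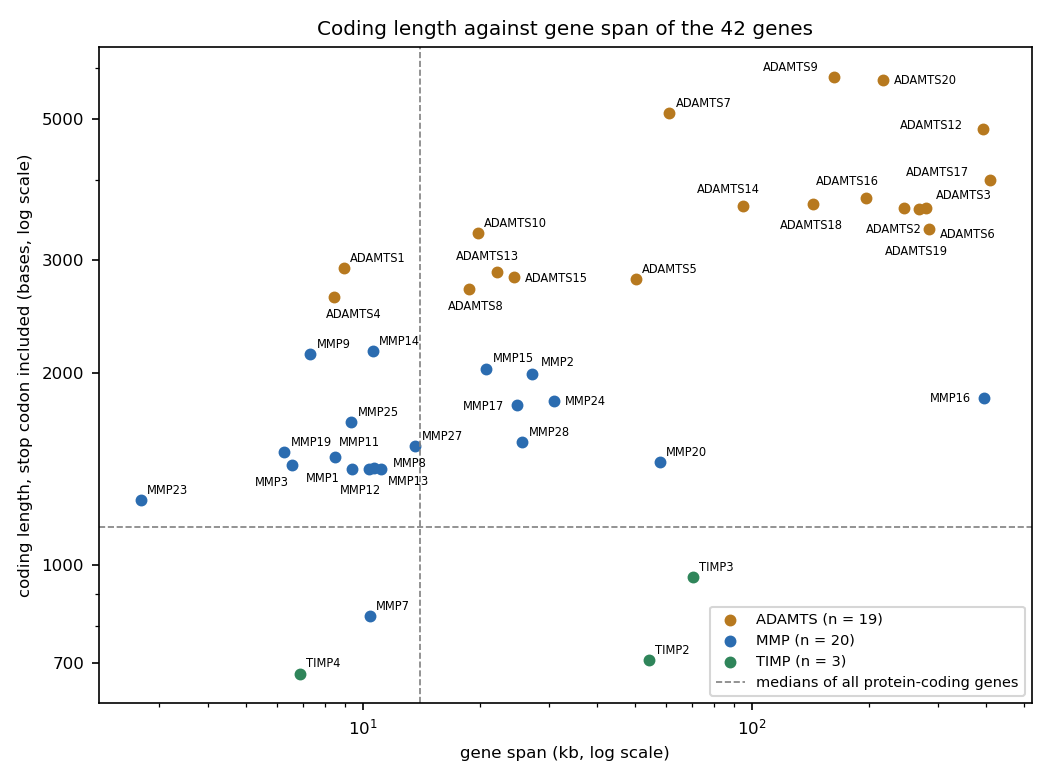
Coding length in bases against gene span in kb, both on log scales, with 1 point for each of the 42 genes coloured by family and dashed lines at the medians of all protein-coding genes (1146 bases and 14.0 kb). The ADAMTS points lie above all MMP points, the TIMP points lie below the coding median, and MMP16 sits far to the right of the other MMP genes.

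Of the MMP genes, 8 formed a cluster on chromosome 15 between positions 5670942 and 6153615, a stretch of 483 kb. In the order of the chromosome these were MMP13, MMP12, MMP3, MMP1, MMP8, MMP27, MMP20 and MMP7, all on the plus strand and each with 1 transcript. Between MMP1 and MMP8 stood the only other protein-coding gene of the stretch, ENSBTAG00000015818, which carries no symbol and lies on the minus strand. The cluster thus held all 3 collagenases, the stromelysin MMP3 and the matrilysin MMP7. It also held MMP12, the elastase of macrophages, and MMP20, the enamel protease of developing teeth.

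Spacing in the cluster was uneven. The gap between MMP13 and MMP12 was 76.9 kb, and those that followed were 10.3 kb to MMP3 and 25.8 kb to MMP1. From MMP1 to the unnamed gene it was 47.4 kb, and from there to MMP8 it was 55.5 kb. MMP8 and MMP27 were the closest neighbours, 6.4 kb apart, and the gaps to MMP20 and on to MMP7 were 67.6 kb and 53.4 kb. The median gap was 50.4 kb. Outside the cluster the nearest protein-coding genes were unnamed too, ENSBTAG00000050505 at 165 kb before MMP13 and ENSBTAG00000049233 at 71.6 kb after MMP7. Spans of the cluster members lay between 6.59 kb (MMP3) and 13.6 kb (MMP27) except for MMP20 with 58 kb, of which a single intron took 19 kb.

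**Figure D2:**
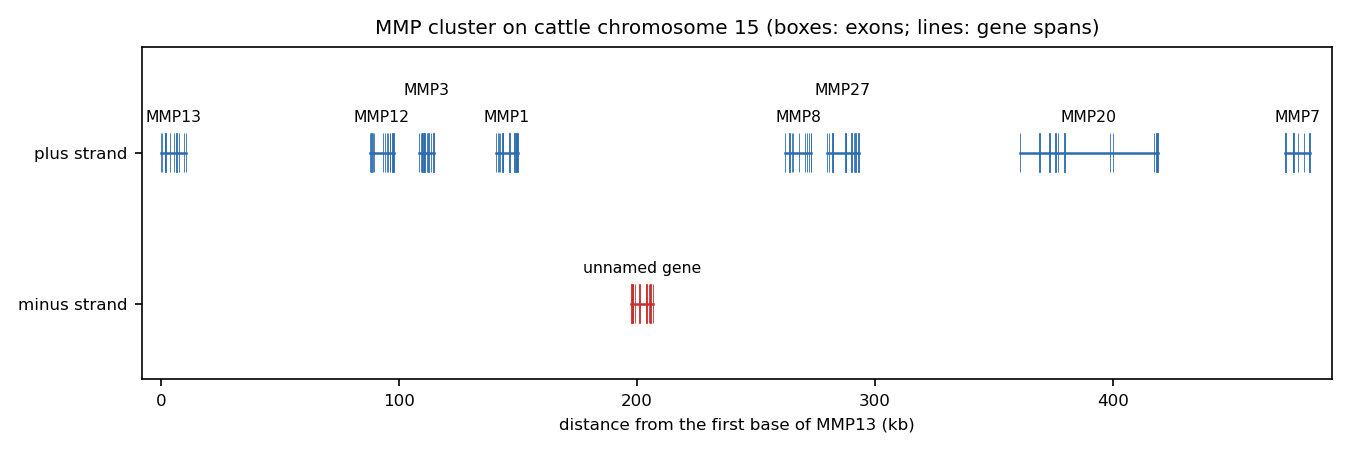
Map of the chromosome 15 cluster, with distance from the start of MMP13 in kb on the horizontal axis and the strand on the vertical axis. Lines are gene spans and boxes are exons: 8 MMP genes (blue) lie on the plus strand and the unnamed gene between MMP1 and MMP8 (red) on the minus strand, with MMP8 and MMP27 closest together at 6.4 kb.

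The unnamed gene had the exon plan of MMP1, the interstitial collagenase. This pair was looked at after its values were seen. MMP1 (15:5811583-5820952) and ENSBTAG00000015818 (15:5868388-5877633) each had 10 coding exons, and all 10 had the same length in both genes, in order 105, 245, 149, 126, 156, 118, 134, 163, 104 and 110 bases. Coding length was therefore 1410 bases in both, and the 3′ UTR was 603 bases in both. The 5′ UTR differed, with 55 bases in MMP1 and 11 bases in the unnamed gene. Of 9 introns, 3 were equal in length (93, 132 and 176 bases) and 4 more differed by at most 5 bases. Intron 4 was 1003 bases in MMP1 and 934 bases in the unnamed gene, and intron 6 was 2562 and 2541 bases. No sequence was read, so how far both genes agree in bases, and whether reads of MMP1 could be told from those of the unnamed gene, was not tested.

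Among the other 21819 protein-coding genes that are not members, ENSBTAG00000015818 was the only gene that shared 4 or more coding exon lengths in a row with a member. A run of exactly 3 was found in 11 genes, among them ADAMTSL4, an ADAMTS-like matrix protein gene without a protease, and genes outside the pathway such as TH, CDH4 and CSMD2. The run lengths of 3 and 4 were set after exon lengths had been seen.

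Within the cluster the same exon lengths returned from gene to gene. MMP8, the collagenase stored in neutrophil granules, had coding exons of 111, 245, 149, 126, 162, 118, 134, 154, 104 and 110 bases. MMP13, the collagenase of cartilage and bone, had 120, 242, 149, 126, 162, 118, 134, 160, 104 and 101 bases. This pair shared 5 lengths in a row, in coding exons 3 to 7. MMP3, which activates other MMPs, shared its 4 leading exon lengths with MMP1 and its 4 last with MMP13. MMP7 had 6 coding exons of 135, 227, 149, 129, 162 and 29 bases, where the other cluster members had 10 or 11. Its lengths of 227, 149 and 129 bases were also found in a row in the gelatinase MMP2. A run of the same size, 149, 129 and 162 bases, was shared with MMP27 of the cluster.

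MMP12 was listed with 11 coding exons, 1 more than most cluster members. Intron 9 was 2 bases long and lay between coding exons of 79 and 22 bases. In the transcript with the longest coding sequence of each gene, MMP12 was the only member with an intron under 50 bases. That is 2.38% of members against 3.54% of all protein-coding genes and 2.15% of those with a symbol. Introns that short are below the length known to be spliced. Whether reads of MMP12 are counted across it was not tested.

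The gelatinases MMP2 (18:23752891-23780118) and MMP9 (13:74746976-74754303), which cut denatured collagen and basement membrane collagen, stood apart from the cluster in build. Both had 13 coding exons, the highest number among the MMP genes, and both carry fibronectin type II repeats inside the catalytic domain that other MMPs lack. From coding exon 5 on, MMP2 had lengths of 174, 174 and 174 bases and MMP9 had 174, 174 and 177 bases. They shared 4 lengths in a row and 6 in order. MMP9, the gelatinase of neutrophils and monocytes, spanned 7.33 kb against 27.2 kb in MMP2 although its coding length was greater, 2139 against 1986 bases.

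The membrane-type enzymes split by their anchor. MMP14, MMP15, MMP16 and MMP24 have a transmembrane segment, and MMP17 and MMP25 are held by a glycolipid anchor (GPI). MMP14 and MMP16 shared the lengths of their last 4 coding exons (139, 151, 116 and 335 bases), and MMP15 shared 3 of these with both. MMP24 had an exon of 267 bases in that place, equal to the sum of the exons of 151 and 116 bases in MMP14, MMP15 and MMP16. The GPI-anchored pair, MMP17 and MMP25, shared a run of 3 (83, 153 and 258 bases) and 5 lengths in order. No run of 3 or more was found between the transmembrane and the GPI-anchored genes. MMP24 and MMP25 were the only members with no start codon annotated, 2 of 42 (4.76%), where all protein-coding genes had 4.79% and those with a symbol 1.55%.

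MMP11, MMP19, MMP23 and MMP28 shared no more than 1 coding exon length in a row with any other member. MMP11 (stromelysin 3) and MMP28 (epilysin) had 8 coding exons each, and MMP19 had 9. MMP23, an unusual enzyme with no hemopexin domain, had 3 transcripts with 7, 8 and 9 coding exons. The longest coding sequence of MMP23, 1263 bases, was in the transcript with 7.

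Across the MMP family, a coding exon of 149 bases was found in 14 of 20 genes, against 3.71% of all protein-coding genes. An exon of 162 bases was found in 10 of 20 MMP genes (4.30% of all genes) and one of 104 bases in 9 (4.99% of all genes). In the ADAMTS family the commonest length was 84 bases, found in 14 of 19 genes (5.67% of all genes), followed by 106 bases in 10 (4.76% of all genes). These lengths were picked as the commonest in each family, so their frequency there is a description. A gene with more coding exons is also more likely to hold a given length. The median number was 10 in MMP and 22 in ADAMTS genes, against 6 in all protein-coding genes.

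ADAMTS genes held the longest runs. ADAMTS6 and ADAMTS10, secreted proteases linked to fibrillin microfibrils, had 24 coding exons each and shared 14 lengths in a row, in coding exons 5 to 18. Counted in order over the whole gene, 18 of their 24 lengths were equal. Spans differed widely, 285 kb in ADAMTS6 and 19.8 kb in ADAMTS10, so the same exon plan was spread over introns of very different size. ADAMTS9 and ADAMTS20, which cut versican and act in skin pigmentation and palate closure in mice, had 39 coding exons each, with 12 equal in a row and 28 in order.

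The procollagen N-proteinases ADAMTS2, ADAMTS3 and ADAMTS14 remove the amino propeptide of fibrillar procollagens, and loss of ADAMTS2 causes dermatosparaxis, a skin fragility disease of cattle and other animals. Each had 22 coding exons, and their coding lengths were 3618, 3624 and 3651 bases. ADAMTS2 and ADAMTS3 shared 11 lengths in a row, and ADAMTS3 and ADAMTS14 shared 5 in a row and 13 in order. ADAMTS3 was listed with leading exons of 69 and 28 bases, while ADAMTS2 opened with 1 exon of 115 bases.

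ADAMTS7 and ADAMTS12 cut cartilage oligomeric matrix protein and carry a mucin-like stretch. They shared 11 lengths in a row, and each had 1 exon over 1000 bases late in the gene, of 1398 bases in ADAMTS7 and 1143 bases in ADAMTS12. ADAMTS16 and ADAMTS18 shared 11 in a row too. ADAMTS17 and ADAMTS19 shared 4 in a row and 12 in order. ADAMTS13, the plasma protease that cuts von Willebrand factor, had 21 coding exons and shared at most 2 lengths in a row with any member.

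The remaining proteoglycanases had few exons. ADAMTS1, ADAMTS4 and ADAMTS8 had 9 coding exons and ADAMTS5 and ADAMTS15 had 8, against a median of 22 in the ADAMTS family, 6 in all protein-coding genes and 8 in those with a symbol. Each began with a long exon, from 738 bases in ADAMTS4 to 1116 bases in ADAMTS5, the main aggrecanase of mouse cartilage. ADAMTS1 and ADAMTS4 shared 4 lengths in a row (287, 187, 176 and 176 bases). ADAMTS5 and ADAMTS15 shared 3 (133, 168 and 284 bases). ADAMTS8 shared no more than 1 in a row.

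In all, 39 of 861 pairs of members shared at least 3 coding exon lengths in a row. All 39 were within a family, among 364 such pairs, and the 497 pairs between families had a longest run of 2. No TIMP gene shared more than 1 with another TIMP gene: their lengths were 130, 101, 109, 125, 194 and 49 bases in TIMP2, 92, 350, 83, 112, 122 and 198 bases in TIMP3, and 139, 98, 115, 125 and 198 bases in TIMP4.

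**Figure D3:**
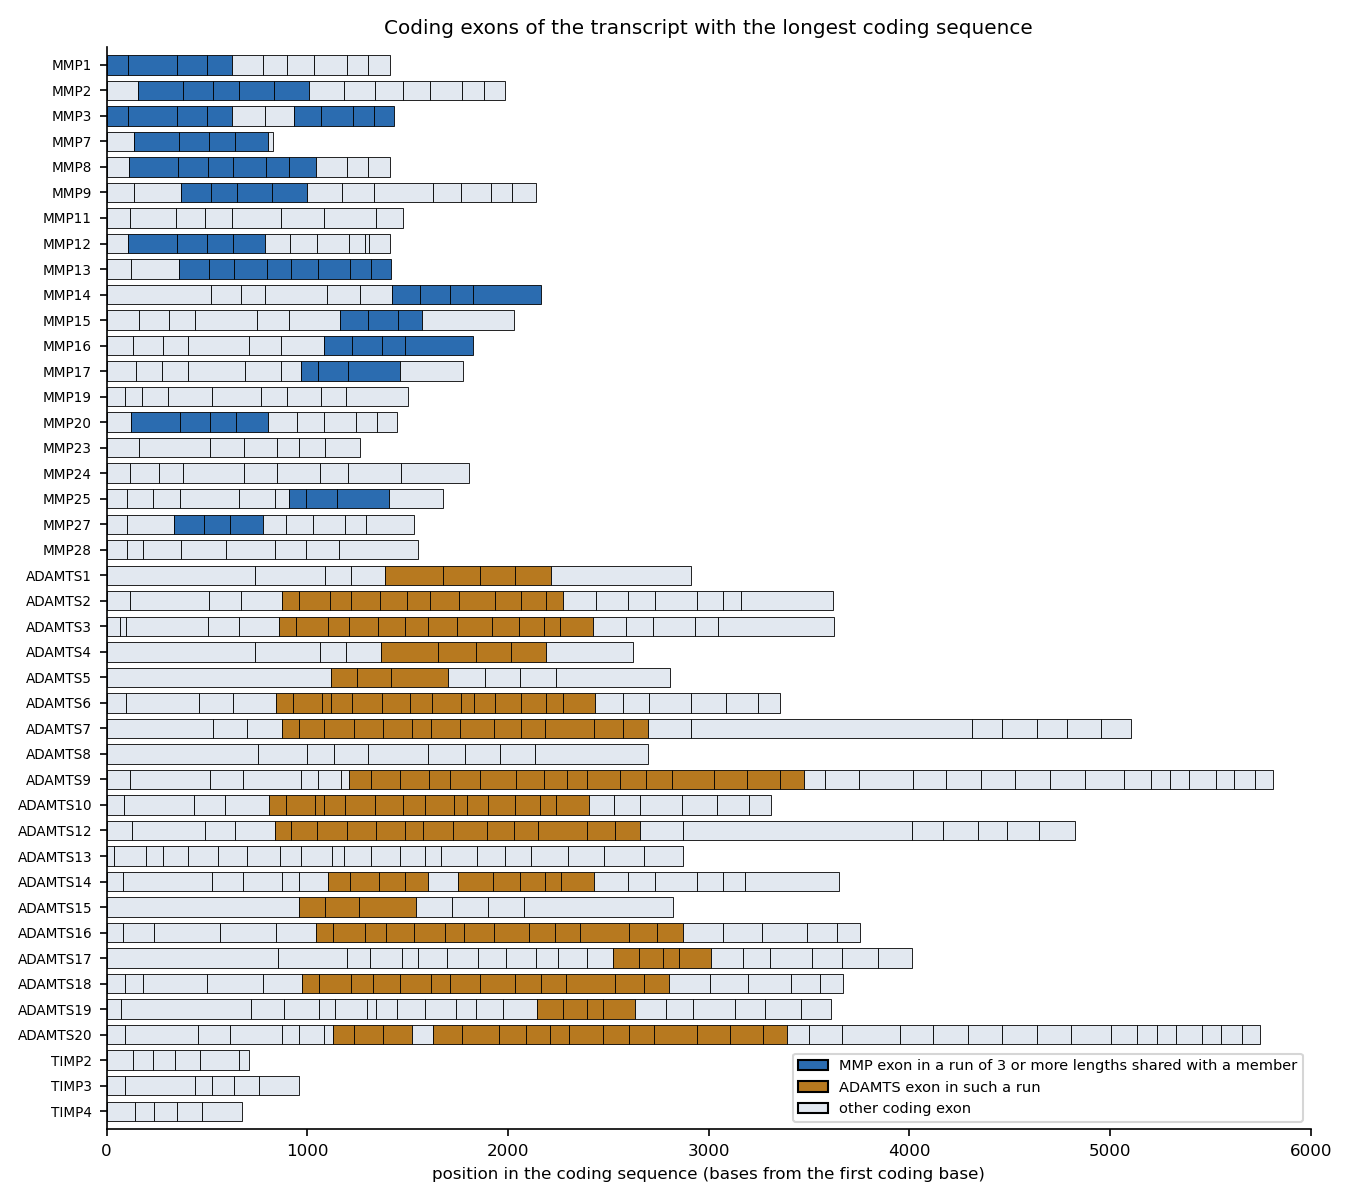
Coding exons of each of the 42 genes drawn to scale along the coding sequence (bases from its start), from the transcript with the longest coding sequence. Coloured boxes are exons in a run of 3 or more lengths shared with another member; they fill the middle of most ADAMTS genes, with the longest run, 14 exons, in ADAMTS6 and ADAMTS10, and none is seen in the 3 TIMP genes.

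A pair of neighbours was found on chromosome 1, where ADAMTS5 (1:9440973-9491324) and ADAMTS1 (1:9583345-9592271) lay on the same strand 92 kb apart. Between them lay 0 protein-coding genes. On chromosome 29, ADAMTS8 (29:36515554-36534251) and ADAMTS15 (29:36560407-36584912) lay on opposite strands with their starts facing each other across 26155 bases. Again 0 protein-coding genes lay between them. All 4 are proteoglycanases with 8 or 9 coding exons. Outside the cluster and these pairs, no members lay within 200 kb of each other.

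A 3′ UTR was annotated for 31 of 42 members, or 73.8% (95% exact binomial interval 58.0% to 86.1%). All protein-coding genes had one in 65.5% of cases and those with a symbol in 79.8%, so the share of the members lay between these values and its interval held both. By family the counts were 15 of 20 MMP genes, 13 of 19 ADAMTS genes and 3 of 3 TIMP genes. The 11 without one were MMP8, MMP11, MMP23, MMP24, MMP25, ADAMTS5, ADAMTS7, ADAMTS13, ADAMTS16, ADAMTS17 and ADAMTS18. For these genes the annotated model stops at the stop codon, and reads that fall beyond it lie outside the model.

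The members without a 3′ UTR were spread over several roles, with 1 of 3 collagenases, 1 of 7 proteoglycanases and 3 of 6 other ADAMTS genes. None was a gelatinase, a procollagen N-proteinase or a TIMP. A link to role was not tested, and the genes named next are examples. Of the neutrophil proteases, MMP8 ended at its stop codon with no UTR at either end, while MMP9 had 196 bases after it. MMP25, a GPI-anchored enzyme also known from neutrophils, had no UTR at either end. ADAMTS13, whose substrate von Willebrand factor circulates in blood, had none at either end as well. The aggrecanase ADAMTS5 had a 5′ UTR of 735 bases and none at the 3′ end. In all, 9 of 42 members (21.4%) had no UTR at either end. This share lay below the 28.0% of all protein-coding genes and above the 12.7% of those with a symbol.

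Among members with a 3′ UTR the median length was 731 bases, against 626 bases in all protein-coding genes and 649 bases in those with a symbol. It was 657 bases in MMP, 1000 bases in ADAMTS and 496 bases in TIMP genes. Cluster members had shorter ones, with a median of 304 bases in 7 of 8 genes, while the other MMP genes had 913 bases in 8 of 12. The shortest of all was that of MMP13 with 100 bases, followed by MMP9 with 196 bases. In the cluster MMP7 had 250, MMP27 had 293, MMP3 had 304, MMP1 had 603, MMP20 had 657 and MMP12 had 708 bases. The 3 transmembrane enzymes with a 3′ UTR lay higher, with 1201 bases in MMP16, 1505 in MMP15 and 1693 in MMP14, while MMP24 had none.

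ADAMTS15 had the longest 3′ UTR of the members with 2599 bases, followed by ADAMTS6 with 2104 and ADAMTS12 with 1807 bases. A length of exactly 1000 bases was given to MMP17, ADAMTS2, ADAMTS8 and ADAMTS14. That is 4 of 31, or 12.9%, where 3.84% of all protein-coding genes with a 3′ UTR, and 3.83% of those that also have a symbol, had that round length. This length was not a planned measure and rests on 4 genes, so the share is a description. In ADAMTS2 the transcript with the longest coding sequence had 823 bases, and 1000 bases belonged to shorter transcripts. ADAMTS20 had its 1282 bases only on a shorter transcript, and 0 on the transcript with 39 coding exons. The TIMP genes lay close together, with 404 bases in TIMP2, 496 in TIMP4 and 511 in TIMP3.

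A 5′ UTR was annotated for 29 of 42 members (69.0%). This share lay above the 66.4% of all protein-coding genes and below the 80.6% of those with a symbol. Its median length was 93 bases in MMP and 402 bases in ADAMTS genes, and 208 bases in all genes that had one. The range ran from 4 bases in MMP20 to 917 bases in MMP19, where the longer value came from the transcript with fewer coding exons. ADAMTS1, ADAMTS4, ADAMTS5 and ADAMTS6 had between 710 and 874 bases.

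**Figure D4:**
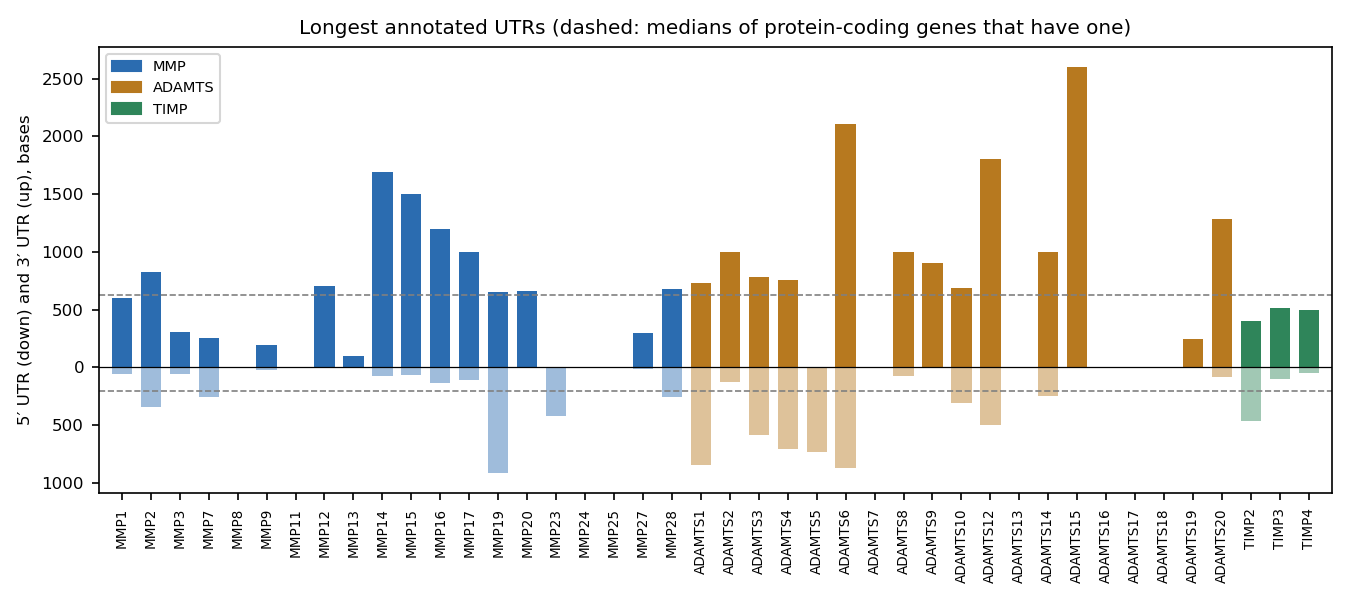
Longest annotated 3′ UTR (bars upward) and 5′ UTR (pale bars downward) of each of the 42 genes in bases, coloured by family, with dashed lines at the medians of all protein-coding genes that have one (626 and 208 bases). No bar upward is seen for 11 genes, and ADAMTS15 has the highest with 2599 bases.

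Of the 42 members, 30 had 1 transcript (71.4%), where 62.3% of all protein-coding genes and 53.9% of those with a symbol did. All members together had 62 transcripts. ADAMTS7 had the most, 5, with coding lengths from 4551 to 5106 bases, and none of the 5 had a UTR. MMP2, MMP15, MMP19, MMP28, ADAMTS6, ADAMTS12 and ADAMTS20 had 2 each. The second transcripts of MMP2 and MMP15 had 1905 and 1881 coding bases and no UTR, while their longer transcripts had 826 and 1505 bases of 3′ UTR.

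No member shared exon bases with another gene on its own strand, where 1.75% of all protein-coding genes and 1.81% of those with a symbol did. On the opposite strand 3 of 42 did (7.14%), against 6.45% of all protein-coding genes and 7.45% of those with a symbol. ADAMTS7 shared 56 bases with TBC1D2B, TIMP4 shared 51 bases with SYN2 and MMP23 shared 28 bases with CDK11B. A further gene lay inside a member: the unnamed ENSBTAG00000045574 (5:37115332-37119907), with 3 coding exons, stood within the span of ADAMTS20 on the same strand and shared 0 exon bases with it.

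Reads beyond the end of a short model can meet the next gene. Within 5000 bases after the 3′ end, 4 members had a gene on the same strand, and 3 of these had no 3′ UTR. MMP11 was followed by SMARCB1 at 2090 bases, MMP25 by ENSBTAG00000050846 at 3440 bases and ADAMTS13 by ENSBTAG00000051781 at 4596 bases. The other was ADAMTS10, with 688 bases of 3′ UTR, followed by MYO1F at 1988 bases. A gene on the opposite strand followed within that distance for MMP19, MMP24, MMP28 and TIMP3, closest for MMP19, at 388 bases. The share of all protein-coding genes with such neighbours was not counted, so neither count can be called high or low.

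The inhibitors were examined beside the synapsin genes, since TIMP genes of mammals lie in introns of synapsin genes and are read from the other strand. TIMP1 is known from SYN1, TIMP3 from SYN3 and TIMP4 from SYN2, and TIMP2 has no such host. TIMP4 (22:56946000-56952875, plus strand) overlapped SYN2 (22:56921625-56950322, minus strand) over 4323 bases and ran past the annotated start of SYN2. SYN2 was listed with 7 coding exons and 786 coding bases, against 13 coding exons and 2121 bases in SYN1.

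TIMP3 (5:71388890-71459269, plus strand) lay outside the span of SYN3, whose nearest end was 188 kb away (5:71116001-71201217, minus strand, 8 coding exons). At 2708 bases on its other side stood the unnamed ENSBTAG00000050644 (5:71461978-71612550, minus strand), which was looked at after its position was seen. Its 6 coding exons included a run of 58, 92, 157 and 90 bases, and SYN1 had these lengths in its coding exons 2 to 5. SYN3 shared a run of 3 lengths with coding exons 7 to 9 of SYN1. TIMP3, which stays bound to the matrix after secretion, was thus flanked on the minus strand by models that shared these runs of exon lengths with SYN1. Whether the unnamed gene belongs to SYN3 was not tested.

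SYN1 (X:85929321-85992826, minus strand) was matched although TIMP1 was not. Its longest intron, the fifth, was 38.4 kb and held 1 protein-coding gene, the unnamed ENSBTAG00000052214 (X:85954327-85955760). That gene lay on the plus strand, with 1 coding exon and 1434 coding bases. The TIMP genes that were matched had 5 or 6 coding exons and at most 957 coding bases. What this gene encodes was not tested. TIMP2 (19:53460671-53514937), which takes part in the activation of proMMP2 by MMP14, lay on chromosome 19, where none of the 3 synapsin genes lay.

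**Figure D5:**
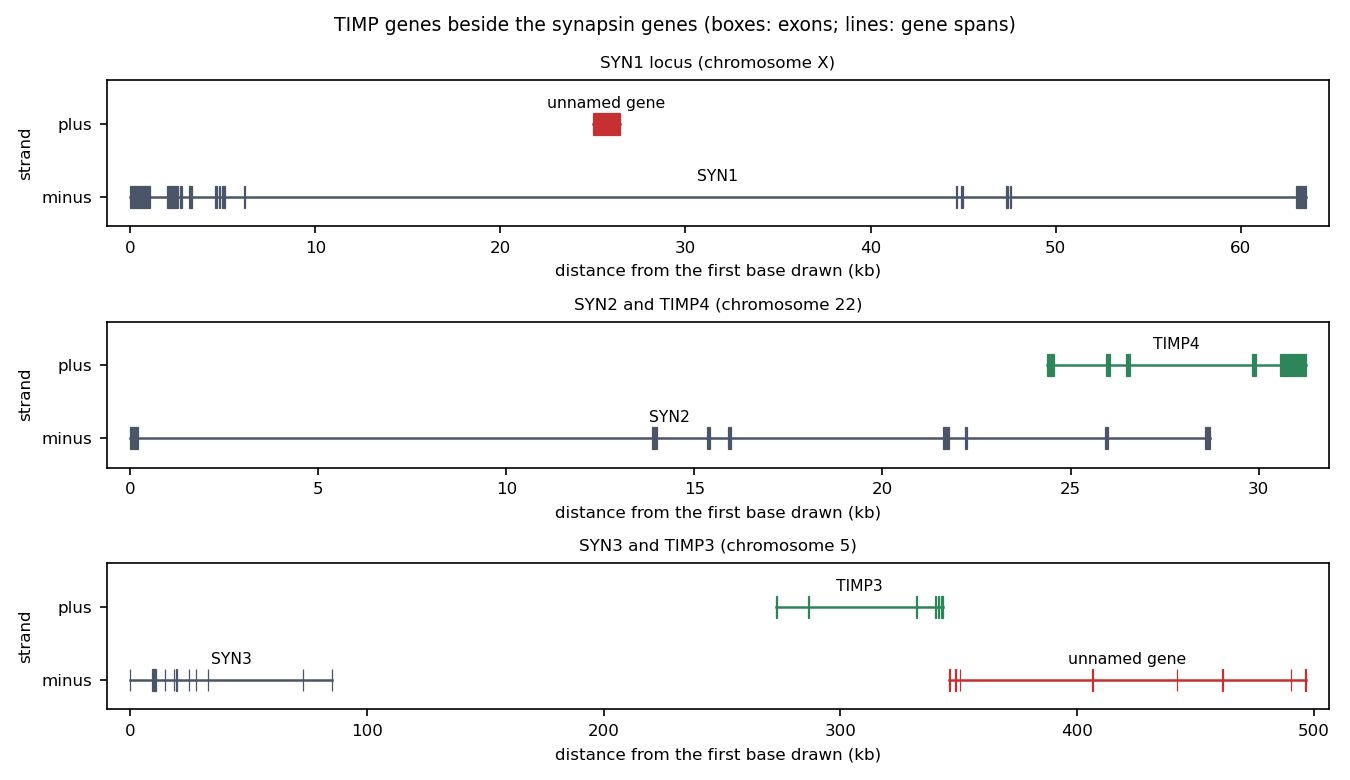
Maps of the SYN1, SYN2 with TIMP4, and SYN3 with TIMP3 loci, with distance in kb on the horizontal axis, strand on the vertical axis, lines for gene spans and boxes for exons. TIMP4 overlaps SYN2, and TIMP3 lies between SYN3 and an unnamed gene on the minus strand. The longest intron of SYN1 holds 1 unnamed protein-coding gene on the plus strand.

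Other genes of the pathway were looked up from lists fixed by role. Of 42 symbols, 39 were matched and 35 of those had a 3′ UTR (89.7%), where 65.5% of all protein-coding genes and 79.8% of those with a symbol had one. All 6 activators had one, among them PLAU (urokinase) with 1567 bases, FURIN, which cuts the propeptide of membrane-type MMPs and ADAMTS enzymes, with 1546 bases, and PLG (plasminogen) with 266 bases. All 7 substrates had one, with 103 bases in ACAN (aggrecan), 402 in VCAN (versican) and 126 in VWF (von Willebrand factor).

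Of 8 other inhibitors, 6 were matched. RECK, a membrane-anchored inhibitor of MMPs, had 1413 bases of 3′ UTR. A2M (α2-macroglobulin), which traps proteases in plasma, had 12 coding exons, 1437 coding bases and no UTR at either end. SPOCK1 had no UTR either, and the symbols SPOCK3 and PZP were not matched. Of 8 ADAMTS-like symbols, 7 were matched and all 7 had a 3′ UTR, from 1 base in ADAMTSL3 to 4574 bases in THSD4. The symbol ADAMTSL6, another name of THSD4, was not matched. Of 6 ADAM sheddases, ADAM17, which releases tumour necrosis factor from the cell surface, was the only one without a 3′ UTR. LRP1, the receptor that clears many of these enzymes, also had none.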

How the data were processed

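Single-cell 3′ RNA libraries of reindeer blood were described by GEO's labels, which gave the group of each of the 4 samples. Per the submitters' processing notes, the tools used included STAR, Seurat and Cell Ranger 3. The file used was the deposited gene annotation (1020224 feature lines), which per the file headers describes the cattle assembly ARS-UCD1.2. Its positions belong to no sample, and the way the authors aligned reindeer reads to cattle models was not given in the sources used here.

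For each gene, the longest 5′ UTR, 3′ UTR, coding length and largest coding exon number over its transcripts were taken. Exon lengths were compared in the transcript with the longest coding sequence. Intron lengths and the share of the span filled by exons were taken from that transcript too. A UTR counted from 1 base. Shares have 95% exact (Clopper-Pearson) intervals, which cover counting error only and treat genes as independent. No test was run. The members and lists were chosen with earlier results of these data known. Every member could be named, with members at the extremes of each measure, without a 3′ UTR or sharing exons, the pathway lists, and neighbours of the cluster, of member pairs and of TIMP genes. The exon length searches, their run lengths, the unnamed genes and the genes named from the search were chosen after values were seen. The 3′ UTR length of exactly 1000 bases was not a planned measure. The planned comparison of antler with back was not run. No genome was used, so no sequence is shown.

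Code that reads the features was checked on constructed gene models of known lengths. Python 3.11.15, NumPy 2.4.6, pandas 2.3.3, SciPy 1.17.1 and matplotlib 3.10.9 were used.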

Additional observations from a re-analysis of the deposited data

How the results depend on the processing

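Of 16 alternatives, 15 left a count within 1.5 times its value and a median within its 95% order-statistic interval. Not all of them could move. Coding length is the same by definition when the transcript with the longest coding sequence is used. The ADAMTS-like genes and PAPLN were too few to take the count of 31 beyond 1.5 times. Members with a 3′ UTR numbered 31, and 30 with the transcript of the longest coding sequence, 29 with at least 200 bases required and 37 of 48 with ADAMTS-like genes and PAPLN added. The median 3′ UTR of 731 bases was 628.5 bases with genes lacking one set to 0. The median coding length of 2083.5 bases was 2151 bases in the 40 members with both a start and a stop codon. Members sharing exon bases went from 0 on the same strand to 3 on either strand. No paired analysis was possible because no value belongs to a sample and no result comes from a test. The annotation is of cattle, so none of these values shows how reindeer genes end, and no read depth limits them.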
